A study of Mus musculus with 18 samples.

Results

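The 7 genes described here are Kcnc2, Gria3, Dmd, Foxp2, Olfm2, Abcc12 and Abat, taken by symbol from the 15194 genes that the 7 deposited comparison tables list in all. They were chosen by their measured values, namely large differences in read counts between knockout lines and control, so those differences are given below as a description without a test. The cells are 3T3-L1, a mouse fibroblast line that turns into fat-storing adipocytes in culture. Total RNA was sequenced from 18 libraries, 3 for each of 6 groups. J0_CTL, J0_MLKL and J0_RIPK3 are undifferentiated control, MLKL-/- and RIPK3-/- cells, labelled untreated. J7_CTL, J7_MLKL and J7_RIPK3 are the differentiated cells whose titles carry the same line names. In the 6 differentiated knockout samples the genotype field names the other knockout, so J7_MLKL and J7_RIPK3 are names of titles and not settled genotypes. Every statement below on the MLKL or RIPK3 line at J7, or on its change from J0, uses the title names, and under the genotype field these J7 groups trade names. All groups are 3T3-L1 cells, and the labels do not say how the knockouts were made, whether each line is 1 clone, or whether replicate libraries came from different cultures. The p-values below therefore measure the spread between these libraries, which may be technical.

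Most of the genes are studied in nerve or muscle. Kcnc2 encodes a voltage-gated potassium channel subunit that lets neurons fire rapidly, and Gria3 encodes an AMPA-type glutamate receptor subunit of excitatory synapses. Dmd encodes dystrophin, which ties the actin cytoskeleton of muscle fibres to a membrane complex and through it to the extracellular matrix. Foxp2 is a forkhead transcription factor known for its role in speech and motor circuits. Olfm2 encodes a secreted glycoprotein with an olfactomedin domain, Abcc12 an ATP-binding cassette protein of the ABCC family, and Abat the mitochondrial transaminase that breaks down the neurotransmitter GABA. MLKL and RIPK3 are the executioner pseudokinase and its activating kinase in necroptosis, a lytic form of cell death.

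The stretches of mm10-family sequence (RefSeq, GRCm38.p6) just before annotated starts are shown for 4 of the 7 genes, to show what lies in front of genes that were high or low by line. RefSeq entries of Gria3, Foxp2 and Abat were not used here. Each line gives the 250 bases before a start, 5′ to 3′ on the gene's strand. Capitals mark matches, on either strand, to a TATA box (TATAAA), a cAMP response element (TGACGTCA) or an E-box (CANNTG), of which the E-box may overlap the others. Kcnc2 was high in both knockout lines, and its window chr10:112270871-112271120 (+) ends just before the deposited gene start.
Kcnc2: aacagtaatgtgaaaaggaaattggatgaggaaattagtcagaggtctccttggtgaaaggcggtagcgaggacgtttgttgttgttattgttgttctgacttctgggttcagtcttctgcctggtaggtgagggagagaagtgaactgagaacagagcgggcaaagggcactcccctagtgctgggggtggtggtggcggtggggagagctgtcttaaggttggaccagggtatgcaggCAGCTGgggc
Dmd was low in both knockout lines. Its window chrX:82948620-82948869 (+) precedes the deposited 5′ end of the gene, and chrX:85048045-85048294 (+) precedes an annotated internal start 2099425 bases downstream.
Dmd, gene start: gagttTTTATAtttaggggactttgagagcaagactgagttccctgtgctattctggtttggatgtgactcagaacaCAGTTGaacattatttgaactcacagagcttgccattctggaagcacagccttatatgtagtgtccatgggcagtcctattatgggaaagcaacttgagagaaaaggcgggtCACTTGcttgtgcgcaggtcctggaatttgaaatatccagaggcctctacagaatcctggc
Dmd, internal start: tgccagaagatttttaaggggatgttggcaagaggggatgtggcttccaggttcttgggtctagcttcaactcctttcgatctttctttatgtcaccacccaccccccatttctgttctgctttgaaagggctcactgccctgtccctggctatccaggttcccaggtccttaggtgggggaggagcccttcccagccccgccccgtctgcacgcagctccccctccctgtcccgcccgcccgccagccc
Olfm2 was high in J7_MLKL and J0_MLKL. Its window chr9:20727004-20727253 (−), inside the deposited gene, is shown for its cAMP response element match.
Olfm2: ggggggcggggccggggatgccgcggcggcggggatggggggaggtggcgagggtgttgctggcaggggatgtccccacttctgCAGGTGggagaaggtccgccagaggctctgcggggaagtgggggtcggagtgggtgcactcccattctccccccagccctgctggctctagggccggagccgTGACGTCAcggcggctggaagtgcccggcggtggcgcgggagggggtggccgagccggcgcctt
Abcc12 was high in undifferentiated cells of both knockout lines, with the window chr8:86566591-86566840 (−), also inside the deposited gene.
Abcc12: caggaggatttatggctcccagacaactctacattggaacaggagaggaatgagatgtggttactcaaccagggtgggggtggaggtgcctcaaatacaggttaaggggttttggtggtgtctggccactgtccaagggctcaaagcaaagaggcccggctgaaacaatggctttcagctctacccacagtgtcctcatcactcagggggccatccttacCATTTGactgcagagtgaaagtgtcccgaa
The TATA box stood only in the first Dmd window of the 5 shown, and 12.4% of all 32851 RefSeq windows of this length hold it. The Olfm2 window was picked for its cAMP response element, so nothing is read from that match. The other 2 Olfm2 windows in the table, of which the nearer starts 53 bases from the deposited 5′ end, do not hold these letters, and 1.55% of all windows do. E-box matches stood in every window shown but that of the internal Dmd start, against 66.2% of all windows. The Olfm2 window held 22 CpG dinucleotides, while the others held 2 to 7, and the median over all windows is 6. A match is a description of letters and not a binding site. Counts are per gene, so reads from transcripts of these Dmd starts cannot be told apart here.

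Library totals ran from 20192400 to 36936478 reads. The deposited tables list only genes that passed the authors' adjusted p of 0.05, and Gria3 in J0_MLKL was not analysed here. Libraries J0_MLKL 2 and J7_MLKL 3 stood apart from their groups, with a median absolute log2 distance over genes from the mean of the other 2 libraries of the group of 0.212 and 0.382, against 0.119 to 0.209 in the other 4 MLKL libraries and 0.0614 to 0.0987 in the 12 others. The targeted genes were still read in every library. Mlkl was at 7.19 to 9.72 CPM (read counts scaled to library size) in J0_MLKL and 13.9 to 16.4 in J7_MLKL, below the 18.2 to 19.8 of J0_CTL and the 25.4 to 27.5 of J7_CTL, and at 14.5 to 17.7 in J0_RIPK3 and 26.5 to 32.3 in J7_RIPK3. Ripk3 was at 14.7 to 17.3 CPM in J0_RIPK3 and 10.2 to 11.7 in J7_RIPK3, against 16.8 to 19.6 in J0_CTL and 17.5 to 19.2 in J7_CTL, but it was lower in J0_MLKL at 5.73 to 9.44 and stood at 7.73 to 12 in J7_MLKL. Reads over a whole gene do not show whether its coding sequence is broken.

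Markers of fat cells, smooth muscle and fibroblasts differed between J7_MLKL and the other J7 groups. Summed over 12 adipocyte markers, J7_CTL had 7239 to 7603 FPKM (a level scaled to gene length and library size), J7_RIPK3 7526 to 8414 and J7_MLKL 995 to 2318, against 43.0 to 58.6 in all J0 libraries. The 4 of 8 smooth muscle markers with values in all groups summed to 314 to 650 FPKM in J7_MLKL, 16.4 to 19.3 in J7_CTL and 13.1 to 15.2 in J7_RIPK3. Nearly all of the J7_MLKL sum was the actin gene Acta2, at a mean of 421 FPKM. Smtn (13.4) and Lmod1 (3.25) were also higher there than in J7_CTL (5.32 and 0.728) and J7_RIPK3 (4.89 and 0.420). Myh11 had a lower mean in J7_MLKL, at 0.734 FPKM against 0.943 in J7_CTL and 1.48 in J7_RIPK3. The 7 of 12 fibroblast and preadipocyte markers with values in all groups summed to 1185 to 1266 FPKM in J7_MLKL, 343 to 351 in J7_CTL and 244 to 264 in J7_RIPK3. Against J7_CTL, all 10 of these markers tested were higher in J7_MLKL (median log2 2.26), with the matrix proteoglycan gene Dcn at 3.86 ± 0.10 and the growth factor receptor gene Pdgfra at 3.27 ± 0.34. The 8 glia markers, of which at most 5 had values, summed to at most 28.3 FPKM. Of 4 tested in J7_MLKL against J7_CTL, 3 were higher and 1 lower. Aldh1l1 had a mean of 0.263 FPKM in J7_MLKL, against 16.0 in J7_CTL and 14.7 in J7_RIPK3. S100b was higher in J7_MLKL, at 12.3 FPKM against 5.16 and 7.11. Of 13 neuron markers 7 had values in any group, and their sum was low, at most 3.69 FPKM in any library. The other neuron markers were not analysed here, so their levels are not known. The synaptic gene Snap25 had 0 reads in J0_MLKL and J0_RIPK3 and 1 in J0_CTL. At J7 its pooled reads were 64 in J7_CTL, 37 in J7_MLKL and 153 in J7_RIPK3. Map2, another neuron marker, fell with differentiation, at log2 -4.03 ± 0.11 in control and -4.24 ± 0.09 in RIPK3 cells. In control cells 2 neuron markers rose, 2 fell and 2 were not called of 6 tested (median log2 -0.46). In the RIPK3 line 2 rose and 3 fell of 5 (median -1.72), and none was tested in the MLKL line. Of 16 skeletal muscle markers 5 had values, led by the intermediate filament gene Des at group means of 1.40 to 14.3 FPKM, and the muscle regulators Myod1 and Myog were not analysed here. The part of cell mixture in the differences below was not tested, and in bulk RNA fewer cells of a type and less RNA per cell cannot be told apart.

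**Figure D1:**
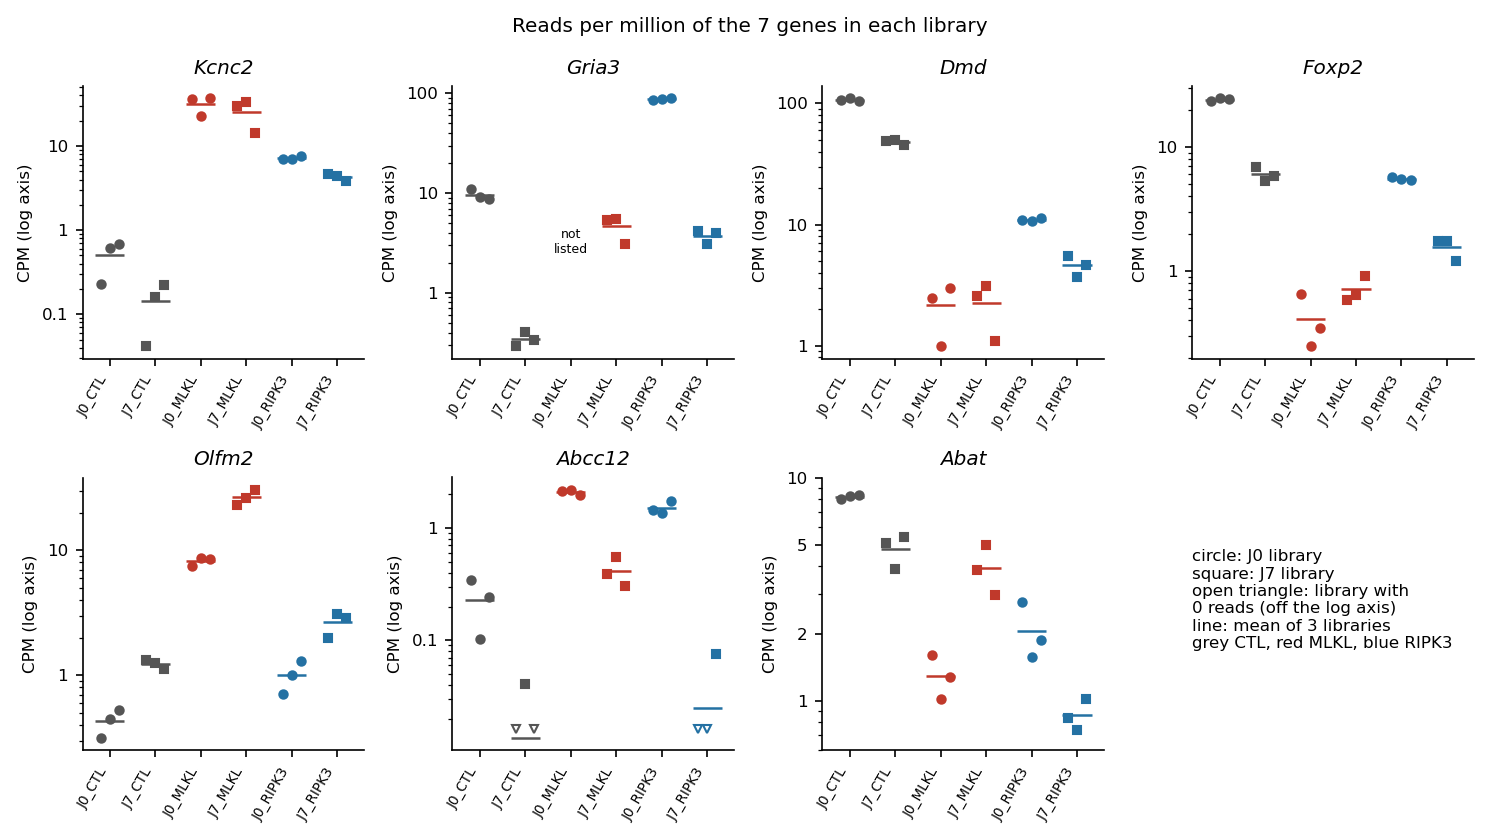
CPM of each of the 7 genes in every library, on a log axis, by group on the x axis. Circles are J0 and squares J7 libraries, lines are means of 3 libraries and open triangles are libraries with 0 reads. Kcnc2, Olfm2, Dmd and Foxp2 separate by line at both stages. Gria3 and Abcc12 drop from J0 to J7 in every line shown at both stages. Kcnc2, Dmd, Foxp2 and Abat drop in control and RIPK3 cells.

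Per length, the highest group mean was 9.97 FPKM for Olfm2 (J7_MLKL), 8.90 for Gria3 (J0_RIPK3), 4.51 for Dmd (J0_CTL) and 4.47 for Kcnc2 (J0_MLKL). Foxp2 reached 1.47 FPKM and Abat 1.06, both in J0_CTL, and Abcc12 reached 0.316 in J0_MLKL. These are low to moderate levels, and the lowest groups rested on few reads. Over 3 libraries, Kcnc2 had 11 reads in J7_CTL, Gria3 26, Foxp2 31 in J0_MLKL and Abcc12 1 in J7_CTL.

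Kcnc2 (ENSMUSG00000035681, chr10:112271121-112467024, + strand, mm10) was near silent in control cells and read well in both knockout lines. The 3 J0_CTL libraries had 0.230, 0.617 and 0.686 CPM, and the J7_CTL libraries 0.0414, 0.162 and 0.224. In J0_MLKL the values were 36.2, 22.8 and 36.9 CPM, and in J7_MLKL 29.6, 33.3 and 14.3. J0_RIPK3 had 6.93, 7.06 and 7.55 CPM and J7_RIPK3 4.71, 4.46 and 3.81. No control library reached any knockout library, and no J7_RIPK3 or J0_RIPK3 library reached an MLKL library, with the library that stood apart being the lowest of its group at both stages. The order of the group means ran from J0_MLKL over J7_MLKL, J0_RIPK3, J7_RIPK3 and J0_CTL to J7_CTL, and only the first pair of neighbours overlapped. The pooled ratio to control was 65.0 in J0_MLKL (95% counting interval 48.1 to 90) and 173 in J7_MLKL (96.7 to 348). In the RIPK3 line it was 14.9 at J0 (11.0 to 20.8) and 29.6 at J7 (16.3 to 59.8). These intervals cover counting error only. The direct ratio of J0_MLKL to J0_RIPK3 was 4.35, and of J7_MLKL to J7_RIPK3 5.87, which was not tested. Under the genotype field the J7 order of the knockout lines turns.

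With differentiation, Kcnc2 fell in the RIPK3 line and did not pass the test in the MLKL line, by title. The log2 fold change was -0.77 ± 0.13 (SE) in J7_RIPK3 against J0_RIPK3 (adjusted p 9.55e-06, edgeR quasi-likelihood test with Benjamini-Hochberg adjustment, as throughout). A fit of all 6 groups together did not call it (-0.54, adjusted p 0.101), and with J7 groups named by the genotype field it was 1.84 in the RIPK3 line and -2.74 in the MLKL line, both called (adjusted p 0.00404 and 1.16e-06). Under the title names the MLKL value was -0.35 ± 0.34 (adjusted p 0.402). That value was -0.28 (adjusted p 0.00448) without J0_MLKL 2 and J7_MLKL 3, a setting chosen after the data were seen. In control cells Kcnc2 was too low for the count filter. Without that filter its log2 value was -1.77 ± 0.58 (adjusted p 0.00565 by edgeR, 0.0138 by DESeq2).

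Other voltage-gated potassium channel genes were mostly outside the tables, with 7 of 38 listed. In control cells 4 were tested, of which 2 rose and 2 fell with differentiation (median log2 0.45, against 0.03 over all genes tested). The same counts held in the RIPK3 line (median 0.50, against 0.04), and none was tested in the MLKL line. Kcnd1, a subunit of A-type potassium channels, fell by 1.75 ± 0.08 on the log2 scale in control cells and by 2.00 ± 0.08 in RIPK3 cells. Kcnh4, a channel of the ether-a-go-go family, rose by 5.69 ± 0.39 and 6.01 ± 0.38, from 6 and 4 reads. Against control at J0, Kcna4, a channel that inactivates rapidly, was higher in J0_RIPK3 (log2 1.36 ± 0.25). The other relative tested there, Kcnd1, was not called (-0.08 ± 0.06).

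Gria3 (ENSMUSG00000001986, chrX:41400854-41678601, + strand, mm10) was high in undifferentiated RIPK3 cells and low in every differentiated group. J0_RIPK3 had 85.6, 88.7 and 89.0 CPM, and J0_CTL 11.0, 9.12 and 8.76. After differentiation the control libraries had 0.290, 0.406 and 0.336 CPM, the MLKL libraries 5.33, 5.48 and 3.10, and the RIPK3 libraries 4.21, 3.07 and 3.96. The groups J7_MLKL and J7_RIPK3 overlapped, and no other neighbours in the order of the means did. The pooled ratio to control was 9.03 in J0_RIPK3 (8.41 to 9.70), 11.0 in J7_RIPK3 (7.36 to 17.2) and 13.3 in J7_MLKL (8.93 to 20.7).

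Gria3 had the largest fall with differentiation among the 5 of the 7 genes tested in control cells. Its log2 fold change was -4.84 ± 0.20 (adjusted p 4.80e-17), a pooled level 28.3-fold lower, and 96.7% of tested genes changed less. In the RIPK3 line it was -4.56 ± 0.08 (adjusted p 6.84e-23), 23.2-fold lower. All 3 J7 libraries lay below all 3 J0 libraries in both lines. The RIPK3 line stood above control at both stages. The difference between the lines' changes was not tested.

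The other ionotropic glutamate receptor genes fell in control cells where they were called. Of 17 genes 6 were listed and 4 tested in control cells, with 0 higher and 2 lower (median log2 -0.69). Grik5, a kainate receptor subunit with a mean of 11.8 FPKM, fell by 1.35 ± 0.05 on the log2 scale, and Grin2d, an NMDA receptor subunit, by 1.37 ± 0.09. In the RIPK3 line 5 were tested, with 1 higher and 3 lower (median -1.22). Gria1, another AMPA receptor subunit, was among the lower genes there, with 47 pooled reads at J0 and 3 at J7. Of 2 tested in the MLKL line 1 rose, the kainate receptor gene Grik2 by 2.97 ± 0.56.

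AMPA receptor partners gave the same counts in control and RIPK3 cells. In each of these lines 4 of 14 were tested, with 1 higher and 3 lower (median log2 -0.99 and -0.86). Dlg4, the postsynaptic scaffold, fell by 1.38 ± 0.04 and 1.73 ± 0.05, and the trafficking partner Cnih2 by 1.26 ± 0.11 and 1.01 ± 0.08. Against control, Cnih2 was higher in J0_RIPK3 (log2 0.80 ± 0.07), J7_RIPK3 (1.07 ± 0.12) and J7_MLKL (1.46 ± 0.26). The J7 comparisons share the J7_CTL libraries.

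Dmd (ENSMUSG00000045103, chrX:82948870-85206141, + strand, mm10) had the highest level of the 7 in control cells per length (4.51 FPKM in J0_CTL and 2.01 in J7_CTL) and was far lower in both knockout lines. J0_CTL had 107, 110 and 105 CPM, and J7_CTL 49.0, 49.8 and 45.0. The RIPK3 line had 10.9, 10.7 and 11.4 CPM at J0 and 5.50, 3.71 and 4.61 at J7. The MLKL line had 2.46, 0.986 and 3.01 CPM at J0 and 2.55, 3.09 and 1.10 at J7. By title, all control libraries lay above all RIPK3 libraries, which lay above all MLKL libraries, and both libraries that stood apart had the lowest value of their group. The pooled level was 51.0-fold lower than control in J0_MLKL (43.7 to 60) and 21.9-fold lower in J7_MLKL (18.7 to 25.8). In the RIPK3 line it was 9.71-fold lower at J0 (9.08 to 10.4) and 10.3-fold lower at J7 (9.18 to 11.5). Between the knockout lines, J0_MLKL stood 5.25-fold and J7_MLKL 2.13-fold below its RIPK3 counterpart, which was not tested. The J7 order of the knockout lines turns under the genotype field.

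With differentiation, Dmd fell in control and RIPK3 cells. The log2 fold change was -1.21 ± 0.04 in control (adjusted p 8.48e-19) and -1.28 ± 0.13 in the RIPK3 line (adjusted p 3.87e-09). In the MLKL line it was 0.02 ± 0.52 (adjusted p 0.98), with overlapping libraries, and its sign depended on which library was left out (-0.36 to 0.35). Named by the genotype field, it was 1.26 (adjusted p 0.00713).

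Genes of the dystrophin complex were listed in 12 of 18 cases. In control cells 4 rose and 8 fell with differentiation (median log2 -0.94, against 0.03 over all genes tested), and in the RIPK3 line 3 rose, 7 fell and 1 was not called. Dag1, the dystroglycan that dystrophin binds, rose by 0.57 ± 0.03 and 0.54 ± 0.03 on the log2 scale, and Sntb2, a syntrophin, fell by 1.51 ± 0.04 and 1.71 ± 0.04. Dtna, which encodes dystrobrevin alpha, fell by 3.78 ± 0.16 and 3.89 ± 0.13. Utrn, the dystrophin homologue, stood at 11.8 ± 0.315 FPKM in J0_CTL and 11.9 ± 0.749 in J0_RIPK3, where Dmd differed 9.71-fold. Utrn was not called between these groups (log2 -0.01 ± 0.04) and is named after its values were seen. For the MLKL line 5 were tested, with 1 higher and 3 lower, among them the sarcoglycan gene Sgcd at -1.57 ± 0.47.

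Against control, most called genes of the complex were higher in J0_MLKL, J0_RIPK3 and J7_MLKL, but not in J7_RIPK3. In J0_MLKL 2 were higher, 1 lower and 3 not called of 6 tested (median log2 0.48, against -0.04 over all genes tested), and in J0_RIPK3 6 were higher and 2 lower of 11 (median 0.21, against -0.01). In J7_MLKL 6 were higher and 2 lower of 8 (median 1.64, against 0.17), and all 10 fibroblast and preadipocyte markers tested were higher in the same libraries. Their part in the result was not tested. In J7_RIPK3 3 genes of the complex were higher, 4 lower and 4 not called of 11 (median 0.01, against 0.001). The sarcoglycan gene Sgcb was higher in J0_MLKL (1.23 ± 0.07), J0_RIPK3 (1.02 ± 0.05), J7_MLKL (2.34 ± 0.11) and J7_RIPK3 (1.32 ± 0.07). Lama2, the laminin chain that binds dystroglycan, was lower in J0_MLKL (-2.17 ± 0.17) and higher in J0_RIPK3 (0.91 ± 0.07).

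**Figure D2:**
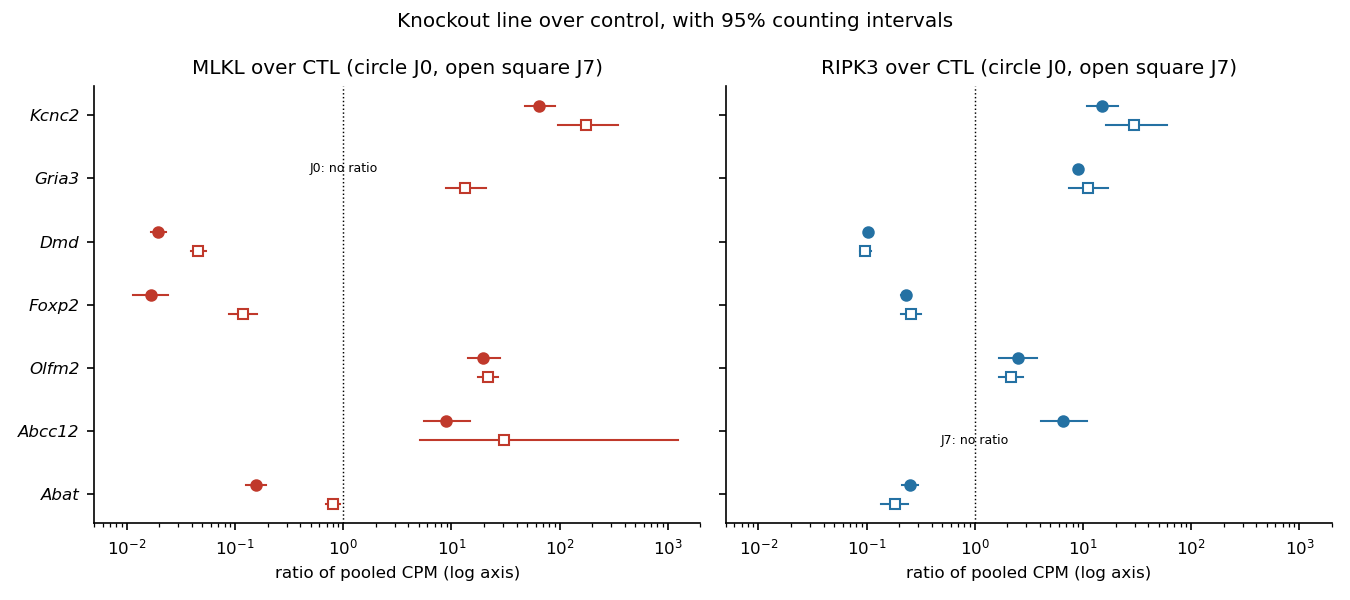
Ratio of pooled CPM of each gene in the MLKL line (left) and the RIPK3 line (right) over control, on a log axis. Filled circles are J0 and open squares J7, bars are 95% counting intervals and the dotted line marks equal levels. In the MLKL line Kcnc2 lies farthest right (65.0 and 173) and Dmd and Foxp2 farthest left, and Kcnc2, Dmd, Foxp2 and Olfm2 lie farther from equal levels there than in the RIPK3 line.

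Foxp2 (ENSMUSG00000029563, chr6:14901349-15441977, + strand, mm10) had the same order of lines as Dmd, which at J7 again holds for the title names. Control had 23.3, 24.6 and 24.1 CPM at J0 and 6.92, 5.28 and 5.85 at J7. The RIPK3 line had 5.75, 5.49 and 5.41 CPM at J0 and 1.75, 1.73 and 1.21 at J7. The MLKL line had 0.647, 0.247 and 0.348 CPM at J0 and 0.579, 0.645 and 0.908 at J7. J7_CTL overlapped J0_RIPK3, J7_MLKL overlapped J0_MLKL, and the other neighbours in the order did not overlap. The pooled level was 59.9-fold below control in J0_MLKL (42.1 to 88.4), from 31 reads, and 8.39-fold below in J7_MLKL (6.30 to 11.4). In the RIPK3 line it was 4.33-fold lower at J0 (3.92 to 4.80) and 3.89-fold lower at J7 (3.15 to 4.85).

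Foxp2 fell with differentiation in control and RIPK3 cells. Its log2 fold change was -2.04 ± 0.09 in control (adjusted p 1.17e-16) and -1.87 ± 0.18 in the RIPK3 line (adjusted p 1.84e-09), with no overlap between stages in either. In the MLKL line it was 0.77 ± 0.43 (adjusted p 0.153). A fit of all 6 groups together gave 0.84 there (adjusted p 0.0212), and the genotype field gave 2.08 (adjusted p 0.000417).

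Relatives and reported targets of Foxp2 were listed in 6 of 8 cases. In control cells 2 rose and 3 fell (median log2 -1.13), and in the RIPK3 line 1 rose, 3 fell and 1 was not called (median -1.31). The forkhead gene Foxp4, at a mean of 17.6 FPKM the most abundant of them, fell by 1.13 ± 0.04 and 1.31 ± 0.04 on the log2 scale. Srpx2, a secreted protein of synapse formation that Foxp2 is known to repress, fell by 1.91 ± 0.06 and 2.69 ± 0.08, and in the MLKL line by 1.24 ± 0.11. Plaur, the urokinase receptor, fell by 1.57 ± 0.15 and 2.43 ± 0.18. The forkhead gene Foxp1 was among the genes that rose in control cells (0.55 ± 0.07), and it was not called in RIPK3 cells (-0.04 ± 0.08). Against control, Srpx2 was higher in J0_MLKL (0.90 ± 0.06) and J7_MLKL (1.62 ± 0.12) and lower in J0_RIPK3 (-0.14 ± 0.04) and J7_RIPK3 (-0.90 ± 0.11), while Foxp2 was low in all 4.

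Olfm2 (ENSMUSG00000032172, chr9:20667690-20746349, − strand, mm10) was high in the MLKL line and, by title, rose with differentiation in every line. The MLKL line had 7.5, 8.60 and 8.50 CPM at J0 and 23.0, 26.3 and 30.3 at J7. Control had 0.316, 0.446 and 0.525 CPM at J0 and 1.33, 1.26 and 1.12 at J7. The RIPK3 line had 0.709, 1.00 and 1.30 CPM at J0 and 2.00, 3.07 and 2.87 at J7. J7_CTL overlapped J0_RIPK3, and no other neighbours in the order did. The ratio to control was 19.7 in J0_MLKL (14.2 to 28.3) and 21.6 in J7_MLKL (17.6 to 26.9), with 2.5 in J0_RIPK3 (1.69 to 3.78) and 2.14 in J7_RIPK3 (1.66 to 2.77). The MLKL line stood 7.89-fold above the RIPK3 line at J0 and, by title, 10.1-fold at J7, which was not tested. Under the genotype field the J7 order turns.

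Olfm2 rose with differentiation by 2.95-fold in control, 3.23-fold in MLKL and 2.52-fold in RIPK3 cells, as pooled CPM. Its log2 fold change was 1.5 ± 0.31 in control (adjusted p 8.77e-05), 1.66 ± 0.15 in the MLKL line (adjusted p 0.000369) and 1.32 ± 0.26 in the RIPK3 line (adjusted p 5.32e-05). Named by the genotype field, the MLKL value was -1.48. By title, all J7 libraries lay above all J0 libraries in each line. By title, Olfm2 alone of the 7 genes rose in all 3 lines.

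Other olfactomedin-domain genes mostly fell. In control cells 8 of 12 were tested, of which 1 rose and 7 fell (median log2 -2.07), and in the RIPK3 line 1 rose and 6 fell of 7 (median -1.86). In the MLKL line 0 rose and 3 fell of 5 (median -0.66), where the 2 others were not called. Olfm1, a secreted neuronal glycoprotein and the paralogue of Olfm2, fell by 4.39 ± 0.11 in control, 4.48 ± 0.12 in RIPK3 and 1.29 ± 0.12 in MLKL cells on the log2 scale. Olfml3, a matrix glycoprotein, fell by 2.25 ± 0.04, 2.45 ± 0.05 and 0.85 ± 0.12. Against control, Adgrl2, a latrophilin receptor, was higher in J0_MLKL (2.16 ± 0.20), J7_MLKL (3.56 ± 0.30) and J7_RIPK3 (1.32 ± 0.15). Its mean was also higher in J0_RIPK3, at 26.3 CPM against 10.7 in J0_CTL. The fibroblast and preadipocyte markers were also higher in J7_MLKL, and their part was not tested.

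Abcc12 (ENSMUSG00000036872, chr8:86482260-86580686, − strand, mm10) had its highest levels in undifferentiated knockout cells. J0_MLKL had 2.16, 2.18 and 1.97 CPM, J0_RIPK3 1.46, 1.35 and 1.73, and J0_CTL 0.345, 0.103 and 0.242. At J7 the MLKL line kept 0.386, 0.553 and 0.303 CPM, from 30 reads. J7_CTL had 1 read and J7_RIPK3 2 reads over 3 libraries, each in a single library. The J0 ratio to control was 8.89 in MLKL (5.63 to 14.8) and 6.54 in RIPK3 (4.11 to 10.9), without overlap. The J7_MLKL ratio to J7_CTL was 30.6 (5.09 to 1250) and moved to 19.8 without J7_CTL 3. Without J7_CTL 2 no read was left in control. For J7_RIPK3 against J7_CTL no ratio is given, because both groups lay at or under the floor of 3 reads.

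Abcc12 fell with differentiation in both knockout lines. The log2 fold change was -2.38 ± 0.27 in the MLKL line (adjusted p 0.000694) and -5.57 ± 0.57 in the RIPK3 line (adjusted p 6.42e-09). The RIPK3 ratio was 54.7-fold lower with a counting interval of 14.8 to 456, since 2 reads were left at J7, both in J7_RIPK3 3. The log2 value of the RIPK3 line ran from -8.33 to -5.04 when each library was left out in turn. In this line Abcc12 passed the count filter through J0_RIPK3 alone. The high level of J0_RIPK3 over control also bore on the choice of the gene, so this call holds no independent support. In control the gene did not pass the count filter, and without it the log2 value was -3.79 ± 1.08 (adjusted p 0.00174 by edgeR, 0.00743 by DESeq2). The direct J7_MLKL to J7_RIPK3 ratio was 14.3 (3.63 to 124) and 9.46 without J7_RIPK3 1, and it turns under the genotype field.

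ABCC relatives, which export drugs, conjugates and nucleotides, were called in both directions. In control cells 2 rose and 3 fell of 5 tested (median log2 -0.21), and in the RIPK3 line 3 rose and 3 fell of 6 (median 0.35). Abcc5, a cyclic nucleotide exporter at a mean of 36.9 FPKM, fell by 0.63 ± 0.04 and 0.52 ± 0.04 on the log2 scale. Abcc4, an exporter of cyclic nucleotides and prostaglandins, rose by 0.68 ± 0.07 and 1.35 ± 0.07. In the MLKL line the single gene tested was Abcc3, a bile salt and conjugate exporter, which fell by 2.46 ± 0.26.

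Abat (ENSMUSG00000057880, chr16:8513429-8621568, + strand, mm10) was lower than control in both knockout lines at J0, and the MLKL line overlapped control at J7. J0_CTL had 7.99, 8.30 and 8.35 CPM, J0_MLKL 1.60, 1.02 and 1.27, and J0_RIPK3 2.76, 1.57 and 1.87. J7_CTL had 5.10, 3.90 and 5.41 CPM, J7_MLKL 3.86, 4.97 and 2.99, and J7_RIPK3 0.833, 0.743 and 1.02. J7_MLKL overlapped J7_CTL, and J0_RIPK3 overlapped J0_MLKL. The pooled level was 6.41-fold below control in J0_MLKL (5.19 to 7.99) and 3.99-fold below in J0_RIPK3 (3.38 to 4.74). At J7 it was 1.24-fold below in J7_MLKL (1.06 to 1.46) and 5.49-fold below in J7_RIPK3 (4.18 to 7.31).

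Abat had called changes of different sign between lines. It fell with differentiation in control (log2 -0.82 ± 0.12, adjusted p 1.44e-06) and in the RIPK3 line (-1.26 ± 0.27, adjusted p 0.000181). Its MLKL value rose by 1.57 ± 0.28 (adjusted p 0.0033), with all 3 J7 libraries above all 3 J0 libraries. The MLKL rise stood at 1.37 to 1.73 when each library was left out in turn. Named by the genotype field, the MLKL value was -0.41 and the RIPK3 value 0.94, so these directions hold for the title names only. The difference between the lines was not tested.

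The genes around Abat in GABA and glutamate metabolism mostly rose with differentiation. In control cells 6 rose, 1 fell and 1 was not called of 8 tested (median log2 0.89), in the RIPK3 line 7 rose and 1 fell (median 1.28), and in the MLKL line 2 rose of 3 tested (median 0.71). Glul, glutamine synthetase, rose by 3.42 ± 0.04 in control, 3.79 ± 0.04 in RIPK3 and 1.81 ± 0.09 in MLKL cells on the log2 scale. Ogdh, a TCA cycle dehydrogenase subunit, rose by 1.70 ± 0.03, 2.00 ± 0.04 and 0.71 ± 0.08. Aldh9a1, an aldehyde dehydrogenase that can form GABA, rose by 1.33 ± 0.03 in control and 1.19 ± 0.04 in RIPK3 cells. Against J7_CTL, 6 of 7 tested were lower and 1 higher in J7_MLKL (median -1.01), where Glul stood at -1.28 ± 0.09 and Aldh9a1 at -1.36 ± 0.08, and the adipocyte marker sum was low in the same libraries. With total reads alone as the scaling, the median of all genes in that comparison moved by -0.10, from 0.17 to 0.07.

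**Figure D3:**
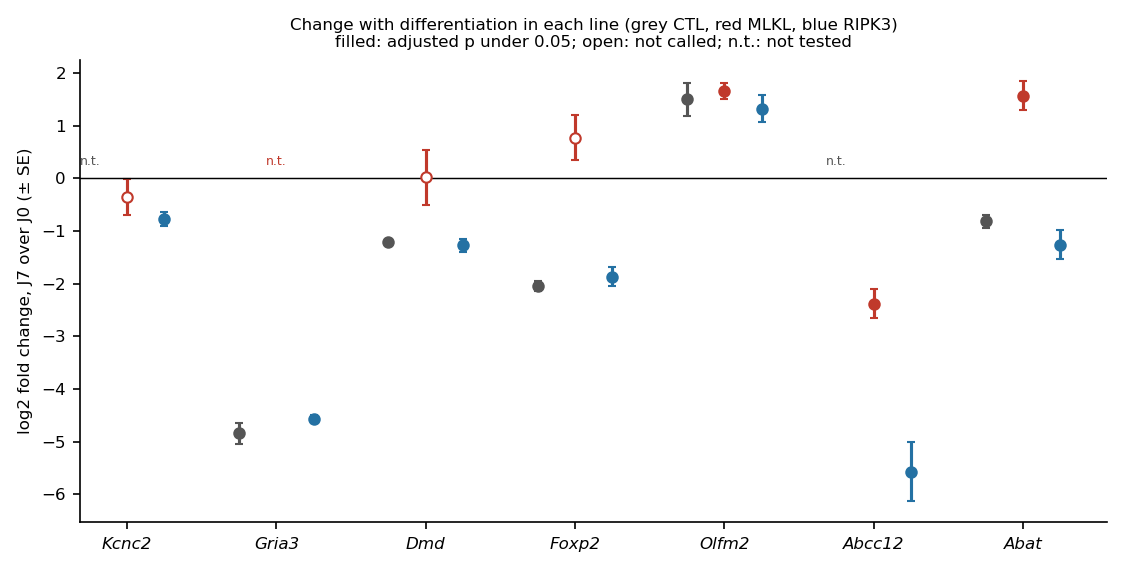
Change from J0 to J7 in each line as log2 fold change with its standard error. Filled points passed an adjusted p of 0.05, open points did not, and n.t. marks genes below the count filter or without J0_MLKL values. Olfm2 lies above 0 in all 3 lines (1.32 to 1.66), Abat lies above 0 only in the MLKL line, and Gria3 and Abcc12 lie lowest.

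Across the 7 genes, differentiation called 5 of the 5 tested in control, with 1 higher and 4 lower, where 95.9% of all genes tested were called (48.2% higher, 47.6% lower). It called 3 of 6 in the MLKL line, 2 higher and 1 lower, where 66.7% were called (35.8% higher, 30.9% lower). In the RIPK3 line 7 of 7 were called, 1 higher and 6 lower, against 97.8% (49.3% higher, 48.5% lower). With 5 to 7 genes chosen with results known, nothing about them is read from these counts. The genes tested had already passed the authors' threshold in some comparison, so the background shares are those of a preselected set. The median log2 fold change of those tested was -1.21 in control, 0.39 in the MLKL line and -1.28 in the RIPK3 line. Libraries of the 2 stages did not overlap for 7 genes in control (95.3% of all genes with counts), 3 of 6 in MLKL (72%) and 7 in RIPK3 (97%).

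The differences from control, which chose the genes, split into 4 genes that were high in knockout lines (Kcnc2, Gria3, Olfm2 and Abcc12) and 3 that were low (Dmd, Foxp2 and Abat). Libraries did not overlap with control for all 6 genes measured in J0_MLKL (background 83.1%) and all 7 in J0_RIPK3 (57.5%). At J7, 6 of 7 did not overlap in J7_MLKL (94.2%), the exception being Abat, and 6 of 7 in J7_RIPK3 (59.3%), the exception being Abcc12. By edgeR, 83.6% of the preselected genes tested were called in J0_MLKL against control (40.4% higher, 43.2% lower) and 55.8% in J0_RIPK3 (28.3% higher, 27.4% lower). At J7 the shares were 94.9% in J7_MLKL (48.5% higher, 46.4% lower) and 59.1% in J7_RIPK3 (29.6% higher, 29.5% lower). Both knockout lines are compared with the same control libraries, so their shared direction holds no independent support. Between the knockout lines themselves, 5 of 6 genes did not overlap at J0 (69.6% of genes with counts) and 6 of 7 at J7 (89.9%).

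**Figure D4:**
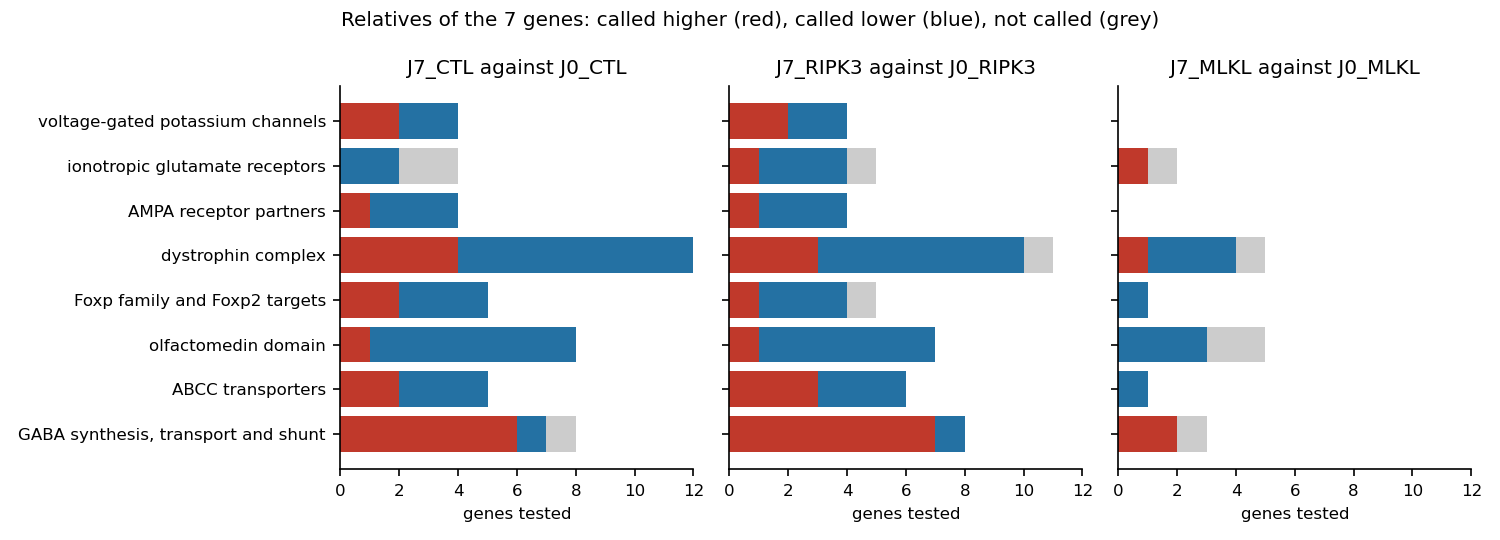
Number of tested relatives of the 7 genes in each list that were called higher (red), called lower (blue) or not called (grey) from J0 to J7, in control, RIPK3 and MLKL cells. Olfactomedin-domain genes were mostly lower (7 of 8 in control) and GABA-related genes mostly higher (6 of 8 in control), and few genes of any list could be tested in the MLKL line.

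The genes whose levels ran most like those of each of the 7 were taken by the highest Pearson correlation of log2(CPM + 0.5). For Kcnc2 over 18 libraries these were Mdm2 (r = 0.97), which encodes the ubiquitin ligase of p53, Sparcl1 (0.96), a matricellular protein, and Srrm4 (0.96), a neural splicing factor. For Gria3 over 15 libraries they were Pgm1 (0.98), Enoph1 (0.97) and Arhgap18 (0.97). Dmd ran with H2-DMb1 (0.96), Cd55 (0.96) and Has2 (0.94), and Foxp2 with Tfec (0.97), Cd55 (0.97) and Dmd (0.94). Cd55, a regulator of complement, thus stood in the top 3 of both Dmd and Foxp2. Olfm2 ran with Vps11 (0.95), Chrdl1 (0.94) and Itga1 (0.94), Abcc12 with Wwc1 (0.95), Hunk (0.94) and Omd (0.93), and Abat with Prickle1 (0.97), Heph (0.91) and Naip5 (0.90). The candidates were 2493 or 2494 protein-coding genes, and 5563 for Gria3. The 18 points fall into 6 groups of 3 that share line and stage, so these values describe group patterns. A rank correlation kept all 3 names only for Abat and shared 0 or 1 name for the others.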

How the data were processed

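RNA-seq libraries of 3T3-L1 cells were described from 7 deposited comparison tables. Per the submitters' processing notes, the tools were FastQC 0.11.9, HISAT2, featureCounts 1.5.0-p3 and DESeq2, with mm10. The deposited tables hold read counts per gene and library, a normalised signal per library (counts that the authors divided by a size factor, as the values show), and FPKM. Their log2 fold changes and p-values are the authors' own and are not printed here. The tables list only genes under the authors' adjusted p-value of 0.05, so genes that passed in no table are not analysed here.

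The tables were joined by gene identifier; 88950 counts stood in more than 1 table and 0 differed. Library totals were recovered from counts and FPKM, and CPM uses them. Differentiation (J7 against J0 of a line) and lists of relatives and markers were fitted with edgeR 4.0.16 (quasi-likelihood test, filterByExpr, TMM, Benjamini-Hochberg over all genes tested) in R 4.3.3. DESeq2 1.42.0 was an alternative, with other scalings, filters, a replicate block and left-out libraries. The code was tested on simulated data. Ratios are of pooled CPM with exact 95% counting intervals. RIPK3 and MLKL groups follow sample titles.

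The members and lists were chosen with earlier results of these data known. Named relatives are, per list, the 3 called genes with the highest mean FPKM and the 2 with the largest change, of which 1 is not reported here; named like genes are the 3 with the highest Pearson correlation. Numbers were not treated as pairs in the main fits. Deviations of same-numbered libraries from their group means correlated at -0.729 to 0.531 in J7_MLKL against J0_MLKL. In the other comparisons they correlated at -0.0876 to 0.0635. With few libraries per group, these values cannot decide whether the numbers are pairs.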

Additional observations from a re-analysis of the deposited data

Results flagged for a closer look

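Abat changed with differentiation in opposite directions in different lines. Its log2 fold change from J0 to J7 was 1.57 in the MLKL line, where all 3 J7 libraries lay above all 3 J0 libraries. It was -0.82 in control cells and -1.26 in the RIPK3 line, where all 3 J7 libraries lay below all 3 J0 libraries. These are the title names, and the MLKL and RIPK3 directions turn under the genotype field. The difference between lines was not tested. The adipocyte marker sum was lower in J7_MLKL than in J7_CTL and J7_RIPK3, and its part in the result was not tested.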

How the results depend on the processing

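Of the values of single genes under another setting, 579 were unchanged, 9 reversed sign, 5 gained a call, 3 lost a call and 2 moved. For differentiation, unchanged means the same direction and the same side of the threshold. For differences from control, which carry no p-value, it means the same direction and a shift below the spread between libraries. With the J7 knockout groups named by the genotype field, 5 of the 7 genes were called in the MLKL line, Olfm2 stood at -1.48 and Abat at -0.41 there, and in the RIPK3 line Kcnc2 stood at 1.84 and Abat at 0.94. Dmd in the MLKL line stood at -0.0043 by DESeq2, at -0.032 without both libraries that stood apart (added after seeing the data), and at -0.36 to 0.35 when each library was left out (-0.10 without J7_MLKL 1, -0.28 without J7_MLKL 2); the cause was not tested. A mean of at least 50 counts left 4 genes called in the RIPK3 line, since fewer were tested. A fit of all 6 groups, which holds only genes with counts in every library, called fewer list genes: 40 for J7_CTL and 42 for J7_RIPK3 against their J0 groups, 14 for J0_RIPK3 and, against J7_CTL, 42 for J7_MLKL and 24 for J7_RIPK3. An absolute log2 fold change over 1 as a further threshold lost the calls of Abat in control and Kcnc2 in the RIPK3 line, and it left 18 for J0_MLKL, 9 for J0_RIPK3 and 12 for J7_RIPK3 against control. With a replicate block the genes called numbered 5 in control, 3 in MLKL and 7 in RIPK3, and no call of the 7 changed. Correlations of same-numbered libraries ran from -0.01 to 0.03 in control and stood at 0.53, -0.73 and -0.63 in MLKL. The few reads of Kcnc2 and Abcc12 in control limit their ratios.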
